A study of Homo sapiens with 6 samples.

Results

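A set of 59 genes of the actin cytoskeleton was read from the RNA-seq of A375 cells with and without RIPK4, a kinase of the RIP family. The genes were taken by name from the deposited table, which listed 20851 genes, and all 59 were found in it. They comprise the actins, the tropomyosins and calponins that decorate actin filaments, crosslinkers and bundlers, the ezrin, radixin and moesin (ERM) linkers, the Arp2/3 complex with its activators, formins, Ena/VASP proteins and profilins, cofilins with the enzymes that regulate them, the gelsolin family, and the MRTF and SRF transcription factors.

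A375 is an established human melanoma cell line. Both sublines were made with the CRISPR/Cas9 system. A375RIPK4.KO received a lentiviral guide RNA construct to RIPK4. A375neg, the negative control that the sample labels call a GFP control, received a nontargeting guide. There were 3 libraries of each, and all 3 knockout libraries came from 1 clone (clone #1), so a difference between the groups cannot be told apart from a difference between this clone and other cells. The cells were grown without further treatment, poly(A) RNA was sequenced, and the samples were described as biological replicates, although what separated the cultures was not given. The p-values therefore measure the spread between these libraries, which may be partly technical.

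Migrating cells push their edge forward in different ways. In a lamellipodium, branched actin networks nucleated by the Arp2/3 complex downstream of Rac and the WAVE complex drive a flat protrusion, while formins, fascin and Ena/VASP proteins build straight filaments and filopodia. A bleb instead forms where the membrane comes off the actin cortex under myosin-driven pressure, and ERM proteins rebuild the link between the membrane and the cortex. MRTFs are held back by monomeric actin and, when released, act with SRF to switch on genes of the same cytoskeleton.

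The libraries held 21882863 to 26694140 counts, and 3 counts, the floor used here, corresponded to between 0.112 and 0.137 CPM (counts scaled to a library total of 1e6). The targeted gene RIPK4 was counted 319, 368 and 404 times in the control libraries and 42, 51 and 61 times in the knockout libraries, a log2 fold change of -2.69 (SE 0.17, edgeR adjusted p = 1.01e-05). Of the melanoma markers, SOX10 and AXL were abundant in all 6 libraries, at 7774 to 9531 and 13456 to 16320 normalized counts, and the pigment cell genes PMEL and TYRP1 had no more than 22 counts in any library. Several identity markers differed between the groups: MITF (log2 fold change -0.44, edgeR adjusted p = 0.0449), S100A1 (-0.86, edgeR adjusted p = 0.0449), S100B (-0.89, edgeR adjusted p = 0.036) and NGFR (-3.03, edgeR adjusted p = 0.000141) were lower in A375RIPK4.KO. Of the marker lists of other cell types, KRT14 of keratinocytes (-1.75, edgeR adjusted p = 3.46e-05) and PECAM1 of endothelial cells, with 21 to 24 counts in A375neg and 4 to 5 in A375RIPK4.KO, were lower too, KRT10, TEK and the fibroblast markers tested were not called, and LYZ of leukocytes is described beside CAPG. The part of these markers in the results was not tested. Knockout replicate 2 stood apart in that its counts fell with transcript length, by 0.0616 on the log2 scale per doubling, against -0.0042 to 0.0241 in the other libraries, so counts of called genes are also given without it.

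The 59 genes took a similar part of each library, 2.07% to 2.15% of all counts in A375neg and 2.06% to 2.16% in A375RIPK4.KO. Of the 59, 56 had enough counts to be tested, and the remaining 3 (CNN1, FLNC and VIL1) were nearly silent. At an adjusted p under 0.05, 14 of the 56 differed (25%), against 16.6% of the 14443 genes tested. The 59 genes were chosen with earlier results of these data known. TPM1, FSCN1, RDX, PAK1, SVIL and SRF were higher in A375RIPK4.KO, and ACTA2, TPM2, CNN2, EZR, FMNL1, FMNL2, GSN and CAPG were lower. The 6 higher genes stand beside 8.4% of all genes and the 8 lower genes beside 8.24%. Changes were mostly small. Only 4 of the 56 (7.14%) also differed by at least 1.5-fold, against 9.04% of all genes, namely TPM1 upward, with 4.39% of all genes, and ACTA2, FMNL1 and CAPG downward, with 4.65%. The median size of the log2 fold change, regardless of sign, was 0.13 for these genes and 0.18 for all genes tested. In bulk RNA, fewer cells with a transcript and less of it per cell cannot be told apart.

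**Figure D1:**
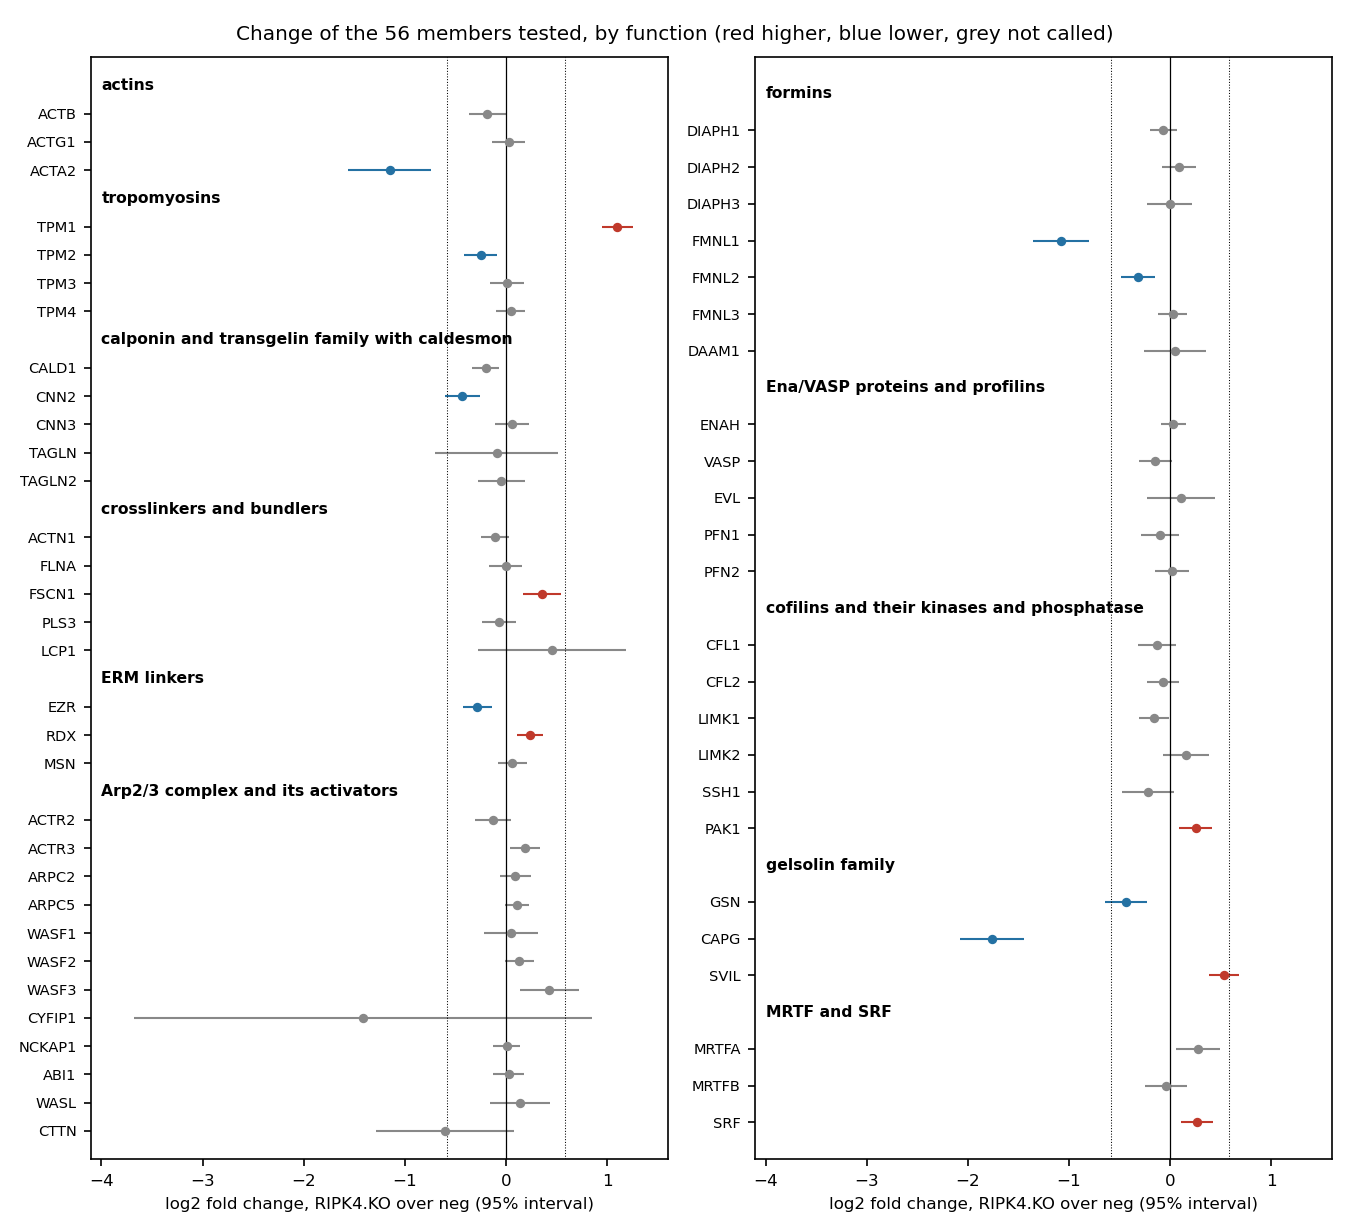
Log2 fold change of each of the 56 genes tested, A375RIPK4.KO over A375neg, on the horizontal axis, grouped by function, with 95% intervals from the edgeR fit. Dotted lines mark 1.5-fold, and 4 genes past the test lie beyond them: TPM1 to the right, and ACTA2, FMNL1 and CAPG to the left.

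The range of values was separate between the groups for 23 of the 56 genes (41.1%), against 36.5% of all genes tested. These were the 14 called genes and 9 of the 42 that were not called. For 37 of the 42, the 95% interval of the difference lay within 1.5-fold, and their log2 fold changes ran from -0.22 to 0.27. The other 5, TAGLN, LCP1, WASF3, CYFIP1 and CTTN, had intervals that reached past 1.5-fold. The number of called genes moved with the libraries used. It was 7 without control replicate 1, 9 without control replicate 2, 8 without control replicate 3, 12 and 10 without knockout replicates 1 and 3, and 20 without knockout replicate 2. Over all genes the called share moved too, between 10.3% and 19.8% in the same fits. ACTA2, TPM1, CNN2, FMNL1, CAPG and SVIL were called in each of the 15 alternative fits.

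**Figure D2:**
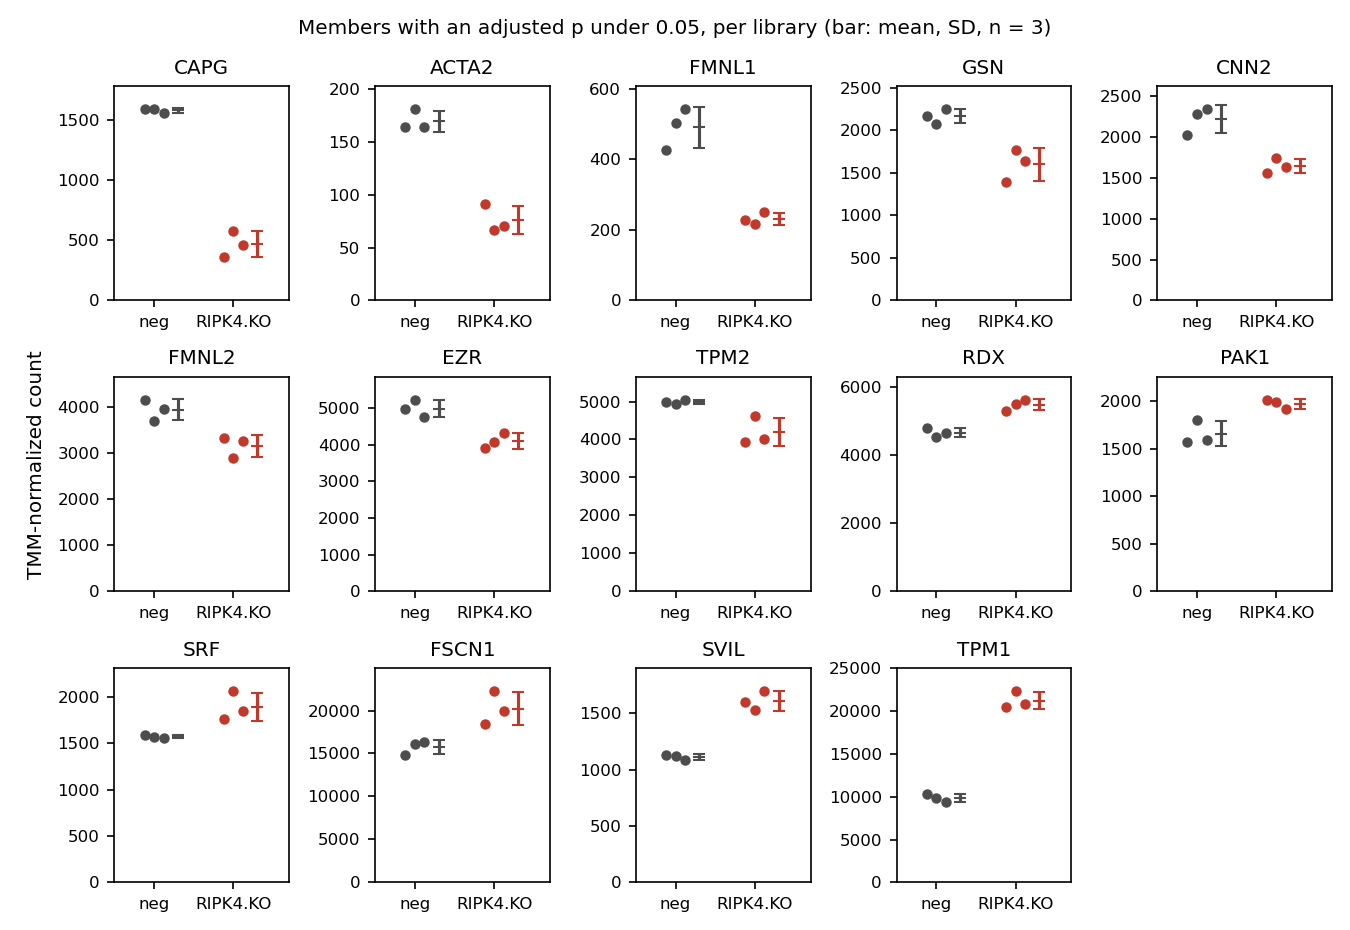
TMM-normalized counts per library (vertical axis, from 0) of the 14 genes with an adjusted p under 0.05, ordered from the largest decrease to the largest increase. Points are libraries, and the bar beside them is the mean with its SD (n = 3 per group). In all 14 panels the values of the groups are separate.

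Among the actins, the cytoplasmic isoforms dominated and smooth muscle actin fell. ACTG1 (cytoplasmic gamma-actin) was at 85982, 90470.5 and 86135 normalized counts in A375neg and at 82297, 96908 and 88149 in A375RIPK4.KO. The groups overlapped, and the log2 fold change was 0.03 (SE 0.07, edgeR adjusted p = 0.848), with a sign that turned to -0.03 without knockout replicate 2. ACTB (beta-actin) averaged 60824 ± 2595 in A375neg and 53520 ± 5293 in A375RIPK4.KO (SD, n = 3 per group), and its log2 fold change of -0.18 did not pass (edgeR adjusted p = 0.161). ACTB and ACTG1 encode almost the same protein and have many processed copies in the genome, so the division of reads between them is uncertain.

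ACTA2, the alpha-actin of smooth muscle and contractile fibroblasts, was far rarer. It had 164, 181 and 164 normalized counts in the control libraries and 91.8, 66.8 and 71.0 in the knockout libraries. Every knockout library was below every control library, a 2.22-fold decrease with a log2 fold change of -1.15 (SE 0.18, edgeR adjusted p = 0.00246). Per kilobase of transcript, ACTA2 reached 126 ± 7.49 normalized counts in A375neg and 56.7 ± 9.93 in A375RIPK4.KO, against 44658 ± 1300 and 45468 ± 3752 for ACTG1 (SD, n = 3). It made up 0.161% of the actin transcripts of A375neg and 0.0763% of those of A375RIPK4.KO on that scale. Other smooth muscle markers were near 0 apart from SMTN. Of 6 listed, DES, LMOD1 and SYNPO2 had at most 12 counts per library, MYH11 and ACTG2 were not analysed here, and the list's summed level of 115 to 131 CPM in A375neg and 153 to 172 CPM in A375RIPK4.KO was nearly all SMTN, which rose (log2 fold change 0.43, edgeR adjusted p = 0.00369). Whether they bear on ACTA2 was not tested.

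The tropomyosins, which wind along actin filaments and set which motors and severing proteins can bind, changed in both directions, with TPM1 higher, TPM2 lower and TPM3 and TPM4 not called. TPM1 on chromosome 15 was at 10372, 9866 and 9426 normalized counts in A375neg and at 20505, 22346 and 20785 in A375RIPK4.KO. The groups were far apart, with a 2.15-fold rise (log2 fold change 1.10, SE 0.07, edgeR adjusted p = 8.98e-06). TPM2 had 4981, 4934 and 5041 in A375neg and 3944, 4629 and 4012 in A375RIPK4.KO. It was lower in every knockout library, with a log2 fold change of -0.25 (SE 0.07, edgeR adjusted p = 0.0453), but the call depended on the libraries. Leaving out any control library or knockout replicate 1 or 3 gave an adjusted p between 0.116 and 0.155.

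TPM3 and TPM4 did not pass the test. TPM3, the most abundant tropomyosin per length in both groups, was at 35380, 36601 and 35295 in A375neg and at 33773, 39654 and 34760 in A375RIPK4.KO, with a log2 fold change of 0.01 that turned to -0.06 without knockout replicate 2. TPM4 had a log2 fold change of 0.05. The make-up of the family moved accordingly. On per-length counts, TPM1 went from 22.4% ± 0.816 to 38.5% ± 0.543 of tropomyosin transcripts and TPM3 from 50.4% ± 0.778 to 40.6% ± 1.08 (SD, n = 3). They lay close together in A375RIPK4.KO on this scale only, as without scaling by length they were at 27.0% and 45.9% there. Per length, TPM2 went from 10.5% to 7.07% and TPM4 from 16.6% to 13.8%. In these 4 shares the groups did not overlap, but that was so for 24 of the 39 shares computed over all families. Each of the 4 gave p = 0.1 in a two-sided exact permutation test, the smallest that 3 libraries against 3 allow. Each tropomyosin gene makes several splice forms, which gene counts do not separate.

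Shares were computed for 39 genes in 15 families, and for 24 of the 39 the groups did not overlap. Shares within a family are tied to each other, and as no p could be below 0.1, none of them passes a threshold of 0.05. Shares of the calponins, ERM proteins, FMNL formins, LIM kinases and MRTFs are given with their genes.

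Of the calponin and transgelin family and caldesmon, which bind along filaments and damp contraction or stabilize stress fibres, 1 of the 5 genes tested fell and none rose, beside 16.6% of all genes called in either direction. CNN2 (calponin 2) had 2022, 2283 and 2343 normalized counts in A375neg and 1559.8, 1739 and 1632 in A375RIPK4.KO. The groups were separate, at a log2 fold change of -0.43 (SE 0.08, edgeR adjusted p = 0.00432). CNN3 did not pass (0.06, edgeR adjusted p = 0.636), and the share of CNN2 among the calponins went from 32.1% ± 0.853 to 25.2% ± 1.28 while that of CNN3 went from 67.8% to 74.5%.

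CALD1 (caldesmon) was just outside the threshold. Its 3209, 3127 and 3087 normalized counts in A375neg were all above the 2860.5, 2594 and 2742 of A375RIPK4.KO, with a log2 fold change of -0.20 (SE 0.06, edgeR adjusted p = 0.0507). It passed in 6 of the 15 alternative fits, among them DESeq2 (adjusted p = 0.0463), the transcript length offset (edgeR adjusted p = 0.0385) and the replicate block (edgeR adjusted p = 0.0445), although the replicate numbers were not found to pair the samples. TAGLN2 was the most abundant gene of this group per length, at 20362, 22488 and 21960 normalized counts in A375neg and 17896, 24040 and 20846 in A375RIPK4.KO. Its groups overlapped (log2 fold change -0.05, edgeR adjusted p = 0.808). TAGLN (transgelin), a smooth muscle gene, had 34.1 ± 0.910 and 32.0 ± 7.03 normalized counts (SD, n = 3). CNN1 was not tested, with 20 counts in all in the control libraries and 45 in the knockout libraries, a ratio per depth of 2.46 (95% interval 1.42 to 4.40 from counting error only).

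Of the crosslinkers and bundlers, FSCN1 rose and the others tested did not pass. FSCN1 encodes fascin, which packs filaments into the stiff bundles of filopodia. It was at 14826, 16151 and 16381 normalized counts in A375neg and 18399, 22275 and 19953 in A375RIPK4.KO. The lowest knockout library was above the highest control library (log2 fold change 0.36, SE 0.08, edgeR adjusted p = 0.0169). Without control replicate 1 or 2 the adjusted p was 0.0924 or 0.0555.

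FLNA (filamin A), which links filaments into an elastic net and ties them to the membrane, was the most abundant crosslinker per length. Its normalized counts were 61077, 64282 and 68696 in A375neg and 60595, 68155 and 64745 in A375RIPK4.KO. The groups overlapped fully, with a log2 fold change of -0.00 (95% interval -0.17 to 0.16). ACTN1 (alpha-actinin 1) had a log2 fold change of -0.11 (edgeR adjusted p = 0.285) and PLS3 (plastin 3) of -0.07 (edgeR adjusted p = 0.592). LCP1, the plastin of leukocytes, was counted under 50 times on average, at 19.1 ± 3.93 and 26.1 ± 4.87 normalized counts (SD, n = 3). FLNC, the muscle filamin, was nearly silent in A375neg, with 1 count in all, and had 26 counts in A375RIPK4.KO. With 1 control count no exact ratio is given, and the lower end of the 95% interval of the ratio per depth, from counting error only, was 4.67. Without the filter on low counts its adjusted p was 0.0266 in edgeR, and DESeq2 gave an adjusted p of 0.0275.

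The 3 ERM genes went different ways. EZR (ezrin) fell, at 4958, 5214 and 4749 normalized counts in A375neg and 3892, 4066 and 4312 in A375RIPK4.KO. The groups were separate (log2 fold change -0.28, SE 0.07, edgeR adjusted p = 0.0173). RDX (radixin) rose, from 4798, 4531 and 4654 to 5303, 5519 and 5623. It too was separate between the groups (log2 fold change 0.23, SE 0.06, edgeR adjusted p = 0.0223). MSN (moesin), the most abundant per length, had 17445, 18093 and 17747 in A375neg and 17694, 19588 and 18366 in A375RIPK4.KO, and its log2 fold change of 0.06 did not pass (95% interval -0.08 to 0.20, edgeR adjusted p = 0.549).

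As a share of ERM transcripts per length, EZR went from 20.7% ± 0.710 to 16.5% ± 0.686, RDX from 21.9% ± 0.846 to 25.1% ± 0.572, and MSN from 57.4% ± 0.687 to 58.4% ± 1.21 (SD, n = 3). EZR and RDX were thus near equal in A375neg and apart in A375RIPK4.KO, where the share of MSN overlapped with that of A375neg (two-sided exact permutation p = 0.4). Both calls were lost in some fits with 1 library left out. That of EZR was lost without control replicate 1, control replicate 2 or knockout replicate 1 (edgeR adjusted p 0.0528 to 0.0912), and that of RDX without any of the control libraries or without knockout replicate 3 (edgeR adjusted p 0.0648 to 0.108). The log2 fold changes with 1 library left out ran from -0.320 to -0.245 for EZR and from 0.215 to 0.259 for RDX. STK10, a kinase known to phosphorylate ERM proteins, and NF2, the related protein merlin, were in the list of further actin genes described later and are named here after their values were seen. STK10 fell (log2 fold change -0.27, edgeR adjusted p = 0.0105) and NF2 rose (0.58, edgeR adjusted p = 0.000125), while SLK, a kinase related to STK10, had a log2 fold change of -0.02 (edgeR adjusted p = 0.894). The call of STK10 held in 14 of the 15 alternative fits, with an edgeR adjusted p of up to 0.0658 with 1 library left out.

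**Figure D3:**
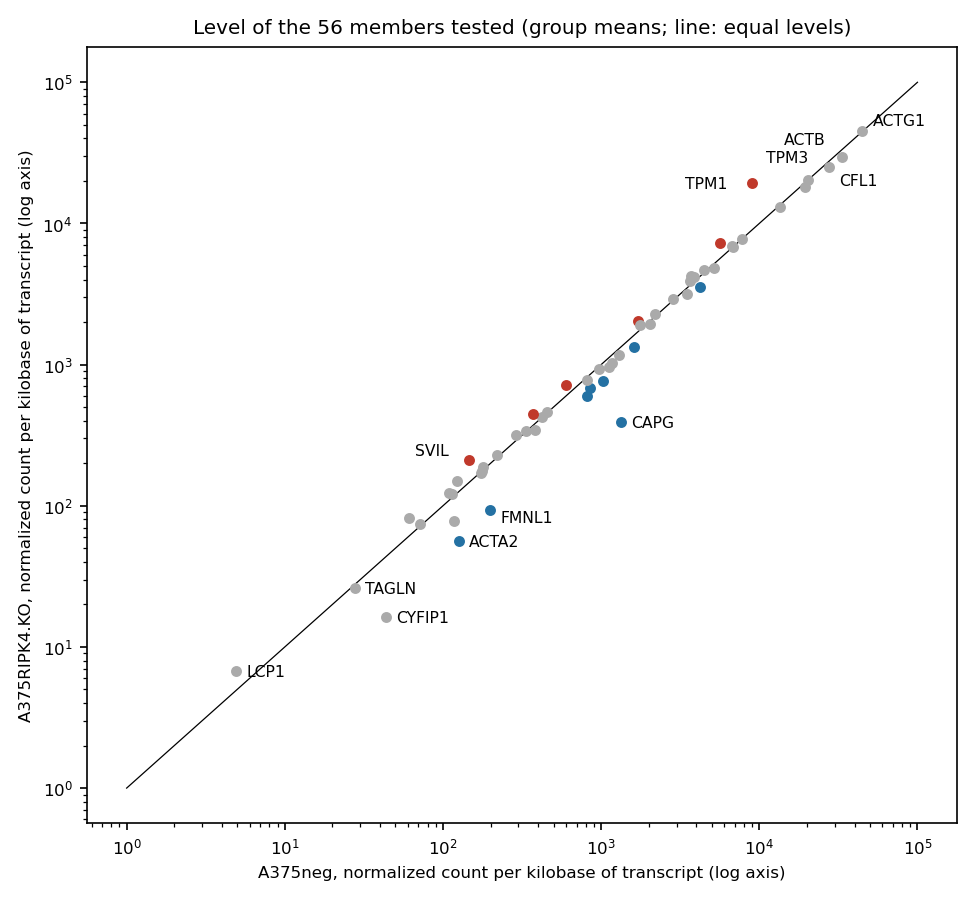
Mean normalized count per kilobase of transcript of the 56 genes tested, A375neg on the horizontal and A375RIPK4.KO on the vertical axis, both logarithmic (n = 3 per group). The line marks equal levels, red and blue points are genes called higher and lower, and TPM1 and CAPG lie farthest from the line among the abundant genes.

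None of the 12 genes of the Arp2/3 complex and its activators passed the edgeR test, beside 16.6% of all genes, and 2 did without knockout replicate 2. At an unadjusted p under 0.05 there were 2, ACTR3 and WASF3, and DESeq2 called 1, WASF3. For 9 of the 12 the 95% interval lay within 1.5-fold, with log2 fold changes between -0.13 and 0.19. ARPC5, the most abundant of them per length in A375neg, had 6313, 6206 and 6413 normalized counts in A375neg and 6799.8, 6742 and 6894 in A375RIPK4.KO. Its groups were separate but close (log2 fold change 0.11, SE 0.05, edgeR adjusted p = 0.208). ACTR3, the most abundant per length in A375RIPK4.KO, had 5537, 5732 and 5764 in A375neg and 6161.5, 6961 and 6249 in A375RIPK4.KO. It was higher in every knockout library but did not pass (log2 fold change 0.19, edgeR adjusted p = 0.0894), and the log2 fold change was 0.09 for ARPC2 and -0.13 for ACTR2. Adding the subunit genes outside the 59, the 10 tested of 11 lay between -0.18 (ARPC1B) and 0.19 (ACTR3), and none passed in edgeR or DESeq2, with 2 at an unadjusted p under 0.05 in edgeR. ARPC1B passed in 3 of the 15 alternative fits.

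The WAVE proteins switch the complex on at the leading edge. WASF2 was the main one, at 86.2% of WASF transcripts per length in A375neg and 86.1% in A375RIPK4.KO, and its log2 fold change of 0.13 did not pass (edgeR adjusted p = 0.213). WASF3 was scarce, at 263, 315 and 303 normalized counts in A375neg and 366, 363 and 454 in A375RIPK4.KO. It was just outside the threshold (log2 fold change 0.43, SE 0.13, edgeR adjusted p = 0.0533), and without knockout replicate 2 it was inside it (edgeR adjusted p = 0.0312). Of the other parts of the WAVE complex, NCKAP1 (0.01) and ABI1 (0.03) had log2 fold changes near 0. Outside the 59 genes and named after its values were seen, the subunit CYFIP2 fell (log2 fold change -0.39, SE 0.09, edgeR adjusted p = 0.0134), a call that held in 12 of the 15 alternative fits. WASL, which encodes N-WASP, was at 0.14 (95% interval -0.16 to 0.43).

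CYFIP1 and CTTN were counted very unevenly. CYFIP1, the WAVE subunit that binds Rac, had 137, 36 and 605 raw counts in A375neg and 27, 212 and 27 in A375RIPK4.KO, a log2 fold change of -1.42 with an SE of 1.0 (edgeR adjusted p = 0.389). Without control replicate 3 the sign turned, to 0.13, and without knockout replicate 2 the value was -3.11 (edgeR adjusted p = 0.0449). The table also holds rows for 2 further copies of the gene, and the rows together had 657, 185 and 794 counts in A375neg and 123, 360 and 585 in A375RIPK4.KO. Even summed, the counts overlapped (log2 fold change -0.51, SE 0.56, edgeR adjusted p = 0.587), so the level of CYFIP1 is uncertain. CTTN (cortactin) had 435, 495 and 228 normalized counts in A375neg and 224, 189 and 349 in A375RIPK4.KO. These overlapped as well (log2 fold change -0.60, SE 0.30, edgeR adjusted p = 0.217).

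Among the formins, which nucleate and lengthen straight filaments, 2 of the 7 genes fell, beside 8.24% of all genes, and none rose. FMNL1 on chromosome 17 was at 427, 502 and 542 normalized counts in A375neg and 227, 217 and 250.4 in A375RIPK4.KO. Every knockout library was below every control library, a 2.12-fold decrease (log2 fold change -1.08, SE 0.12, edgeR adjusted p = 0.000354). A listed antisense gene, FMNL1-AS1, had 22, 17 and 10 raw counts in A375neg and 4, 3 and 5 in A375RIPK4.KO. How the counting used strand was not given, so some reads of the pair could be shared, though FMNL1-AS1 had few.

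FMNL2, its close relative at lamellipodia and filopodia, had 4154, 3706 and 3960 normalized counts in A375neg and 3338, 2893 and 3256 in A375RIPK4.KO. The groups were separate (log2 fold change -0.32, SE 0.07, edgeR adjusted p = 0.0186), and without control replicate 1 or 3 the adjusted p was 0.088 or 0.0671. FMNL3 was at 0.02 (edgeR adjusted p = 0.834). In the family, FMNL1 went from 13.1% ± 1.66 to 7.51% ± 0.381 of transcripts per length, FMNL2 from 56.7% ± 1.83 to 55.2% ± 0.745 and FMNL3 from 30.2% ± 0.605 to 37.3% ± 0.394 (SD, n = 3). DIAPH1, the most abundant formin per length, was at 12048, 11521 and 11422 in A375neg and 11565, 10983.8 and 10836 in A375RIPK4.KO. It did not pass (log2 fold change -0.07, 95% interval -0.20 to 0.07, edgeR adjusted p = 0.491), nor did DIAPH2 (0.09), DIAPH3 (-0.00) and DAAM1 (0.05).

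Ena/VASP proteins lengthen filaments at protruding tips, and profilins hand actin monomers to them and to formins. None of these 5 genes passed in edgeR or in DESeq2, beside 16.6% of all genes in edgeR, too few genes to set them apart from the rest, and none had an unadjusted p under 0.05 in edgeR. PFN1 (profilin 1), the most abundant, was at 23412, 24116 and 24354 normalized counts in A375neg and 20035, 24892 and 22044 in A375RIPK4.KO. The knockout libraries spread around and below the control values (log2 fold change -0.10, edgeR adjusted p = 0.454), and without knockout replicate 2 the value was -0.18 (edgeR adjusted p = 0.0356). ENAH was at 0.03, VASP at -0.15, EVL at 0.10 and PFN2 at 0.02.

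Cofilins sever old filaments, LIM kinases switch them off by phosphorylation, the slingshot phosphatase SSH1 switches them on again, and PAK1 is a kinase under Rac and Cdc42 that acts on LIM kinases. PAK1 was the 1 gene of these 6 past the test, a share like the 16.6% of all genes. It had 1574, 1806 and 1590.5 normalized counts in A375neg and 2012, 1996 and 1913 in A375RIPK4.KO. Each knockout library exceeded each control library (log2 fold change 0.25, SE 0.07, edgeR adjusted p = 0.0401). Without control replicate 1 or 3 or knockout replicate 1 or 3 the adjusted p lay between 0.0754 and 0.154.

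CFL1 (cofilin 1), the most abundant of these per length, was at 26043, 26089 and 27358 in A375neg and 21834, 27133 and 23566 in A375RIPK4.KO. It overlapped between the groups (log2 fold change -0.13, edgeR adjusted p = 0.334), whereas without knockout replicate 2, its highest knockout value, it was at -0.22 (edgeR adjusted p = 0.0136). LIMK1 was at -0.16 (edgeR adjusted p = 0.146) and LIMK2 at 0.16 (edgeR adjusted p = 0.352). The share of LIMK1 in this pair went from 77.8% ± 0.338 to 73.8% ± 1.62 per length (SD, n = 3), without overlap. CFL2 (-0.07) and SSH1 (-0.22, edgeR adjusted p = 0.244) did not pass. Processed copies of CFL1 and PFN1 in the genome leave their exact level uncertain.

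The gelsolin family held the largest decrease of all 59 genes. CAPG encodes a capping protein that binds the growing ends of filaments without cutting them. It was at 1589.7, 1594 and 1561 normalized counts in A375neg and at 364, 578 and 459 in A375RIPK4.KO. The control libraries lay close together and all 3 knockout libraries far below, a 3.38-fold decrease (log2 fold change -1.76, SE 0.14, edgeR adjusted p = 4.63e-05). Per length it was the most abundant gene of its family in A375neg, at 1330 ± 15.0 normalized counts per kilobase, while in A375RIPK4.KO its 393 ± 90.3 lay below the 601 ± 73.9 of GSN (SD, n = 3).

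GSN (gelsolin), which severs and caps filaments in response to calcium, fell as well. It had 2171, 2075 and 2248 normalized counts in A375neg and 1385, 1771 and 1640.5 in A375RIPK4.KO. The groups were separate (log2 fold change -0.44, SE 0.09, edgeR adjusted p = 0.0103), and without control replicate 3 the adjusted p was 0.0502. SVIL (supervillin), a membrane-bound member that ties actin to myosin II, rose from 1128, 1119 and 1082 to 1596, 1523.9 and 1696. That is a 1.45-fold difference with wide separation (log2 fold change 0.53, SE 0.07, edgeR adjusted p = 0.000601). VIL1 (villin), an epithelial gene, had 3 counts in all in A375neg and 6 in A375RIPK4.KO and was not tested.

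CAPG, FMNL1 and LCP1 are also abundant in blood cells. Of the leukocyte markers listed, PTPRC had at most 3 counts in a library, and the summed level was 1.63 to 2.05 CPM in A375neg and 0 to 0.802 CPM in A375RIPK4.KO, mostly LYZ. LYZ was the single marker of that list with enough counts to be tested. It had 38, 36 and 37 raw counts in A375neg and 13, 0 and 3 in A375RIPK4.KO, lower like CAPG and FMNL1 (edgeR adjusted p = 0.0382, held in 10 of 14 alternative fits). LCP1 was not called (log2 fold change 0.45, edgeR adjusted p = 0.392), and RAC2 of blood cells, described later, rose. The part of LYZ in the values of CAPG and FMNL1 was not tested.

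SRF, which binds DNA and is itself among its targets, rose modestly. It was at 1588, 1565 and 1553 normalized counts in A375neg and 1763, 2060.4 and 1840.2 in A375RIPK4.KO. The groups were separate (log2 fold change 0.27, SE 0.07, edgeR adjusted p = 0.032), but without any of the control libraries or without knockout replicate 3 the adjusted p lay between 0.0686 and 0.108. Of its actin-sensing partners, MRTFA averaged 483 ± 21.3 normalized counts in A375neg and 583 ± 57.7 in A375RIPK4.KO (SD, n = 3). Its log2 fold change of 0.27 did not pass (SE 0.10, edgeR adjusted p = 0.0875), and it did in 3 of the 15 alternative fits, without knockout replicate 2 (edgeR adjusted p = 0.016), with the transcript length offset (edgeR adjusted p = 0.0395) and with that offset and the replicate block (edgeR adjusted p = 0.0397). MRTFB was at -0.04 (edgeR adjusted p = 0.795), and MRTFA made up 41.4% ± 2.26 of MRTF transcripts per length in A375neg and 46.7% ± 0.334 in A375RIPK4.KO, without overlap.

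SRF recognizes the CArG box, which is CC, then 6 bases that are A or T, then GG, and which reads the same way on both strands. Promoter sequences were at hand for 52 of the 59 genes, as RefSeq windows of GRCh38.p14 from 250 bases before to 50 after each annotated start. A CArG box was found in the windows of 7 of the 52 (13.5%), against 1.6% of the 27305 genes with a window. Since some genes have several starts, the share per window is given too, 7 of 99 (7.07%) against 1.29% of all 35116 windows. The 7 are shown because the box is the sequence SRF is known to bind, each as 30 bases of the strand that is transcribed, 5′ to 3′, with the box in capitals.
SRF (chr6:43171239-43171268, plus strand): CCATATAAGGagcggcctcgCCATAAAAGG
SVIL (chr10:29634985-29635014, minus strand): cgagttcaggCCATAAAAGGcccgtcccat
CNN2 (chr19:1026509-1026538, plus strand): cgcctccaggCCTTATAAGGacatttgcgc
ACTG1 (chr17:81512874-81512903, minus strand): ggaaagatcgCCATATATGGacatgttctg
FLNA (chrX:154374709-154374738, minus strand): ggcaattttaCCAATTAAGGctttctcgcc
ACTN1 (chr14:68977718-68977747, minus strand): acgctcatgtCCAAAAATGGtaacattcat
TPM4 (chr19:16067355-16067384, plus strand): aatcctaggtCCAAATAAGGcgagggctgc

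Of these 7 genes, SRF and SVIL were called higher and CNN2 lower, while ACTG1, FLNA, ACTN1 and TPM4 were not called. The window of SRF held 2 boxes, the nearer of which begins 10 bases before the start. In SVIL the box begins 33 bases before an annotated start that lies within the gene. The span listed for this minus strand gene reaches 29736936, so its listed 5′ end lies farther upstream. ACTN1, also on the minus strand, has a listed span that reaches 68979302, so its box likewise lies before a start within the gene. A match is a string in a window and not a measured binding site, and genes without one here may have a box elsewhere.

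A list of 29 other genes known as targets of MRTF or SRF, written with earlier results of these data known, was read in the same fit. The called share of the list may therefore reflect that choice. Of 27 tested, 9 were higher and 6 lower in A375RIPK4.KO (55.6%, against 16.6% of all genes), and 16 passed without knockout replicate 2. Among those past both limits, FHL1, a LIM protein of muscle and stress fibres, rose 5.67-fold (edgeR adjusted p = 8.24e-07). CCN2, a matricellular growth factor, rose 3.44-fold (edgeR adjusted p = 1.18e-06) and ANKRD1 rose 3.09-fold (edgeR adjusted p = 1.61e-05). CCN2 and ANKRD1 are also well known targets of YAP.

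Genes of the EGR family, which encode zinc finger transcription factors, were among those that fell. The list does not separate targets of SRF with MRTF from targets of SRF with other partners. The values of the EGR genes are thus not a measure of MRTF alone. EGR1 fell 2.90-fold (edgeR adjusted p = 0.000409) and EGR3 2.16-fold (edgeR adjusted p = 0.00132). EGR2 had 27, 17 and 20 raw counts in A375neg and 2, 2 and 3 in A375RIPK4.KO (edgeR adjusted p = 0.0034), too few in the knockout libraries for a fold. The median log2 fold change of the list was 0.03 and that of all genes was -0.00.

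**Figure D4:**
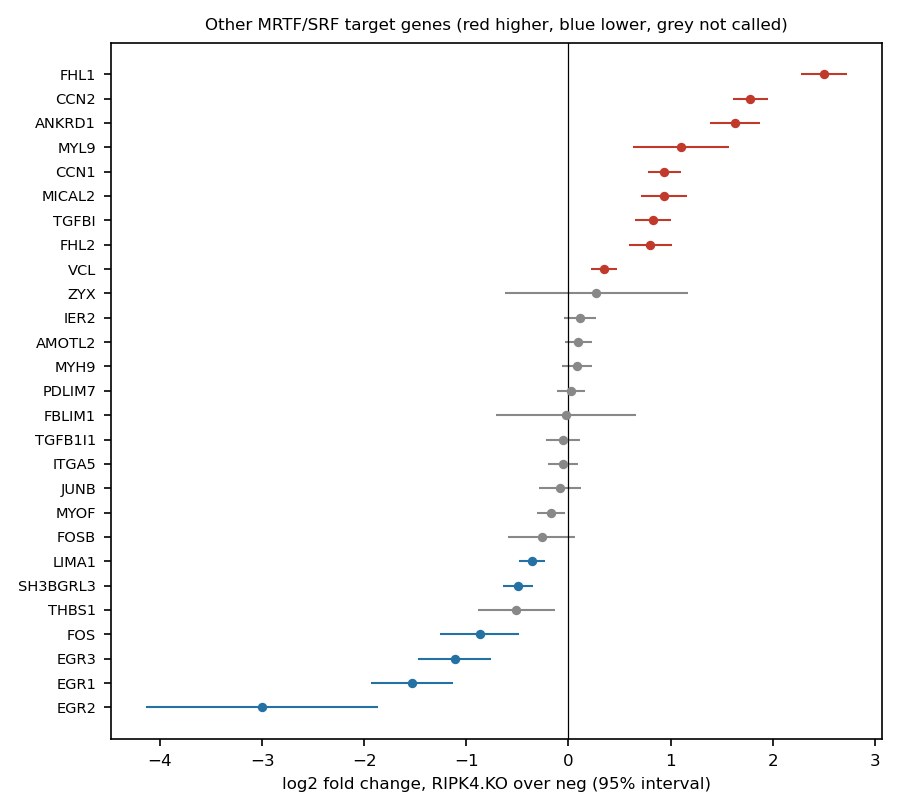
Log2 fold change, A375RIPK4.KO over A375neg (horizontal axis), with 95% intervals from the edgeR fit, of the 27 genes tested of a list of further MRTF or SRF targets. The 9 genes called higher are red and the 6 called lower are blue, from FHL1 at the top to EGR2 at the bottom.

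A second list held 77 other genes of actin assembly, from capping proteins and coronins to further formins and PAK kinases. It too was written with earlier results of these data known. Of the 60 tested, 4 were higher, beside 8.4% of all genes, and 12 lower, beside 8.24% (together 26.7%, against 16.6%). Past both limits were 6 of the 60 (10%), close to the 9.04% of all genes. PAK3, a relative of PAK1 better known from neurons, fell most, from 713, 793 and 804 normalized counts to 200, 227 and 234 (log2 fold change -1.80, SE 0.10, edgeR adjusted p = 5.35e-06). WIPF1, which encodes the partner WIP of N-WASP, fell 1.77-fold (edgeR adjusted p = 2.02e-05). MICAL2, an enzyme that oxidizes actin and takes filaments apart, rose 1.91-fold (edgeR adjusted p = 0.000256).

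The other 3 past both limits were formins. FHOD3 fell 2.52-fold (edgeR adjusted p = 5.39e-05), FHDC1 2.35-fold (edgeR adjusted p = 0.0347) and FMN1 1.87-fold (edgeR adjusted p = 0.0208). FHDC1 was counted 58, 41 and 37 times in A375neg and 15, 14 and 24 times in A375RIPK4.KO, and its call held in 6 of the 14 alternative fits that tested it, that of FMN1 in 12 of 15. The count of this second list moved with the libraries used: 8 of its genes passed without control replicate 2, 10 without control replicate 3 or knockout replicate 3, and 21 without knockout replicate 2, against 16 with all libraries.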

How the data were processed

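RNA from 3 A375neg and 3 A375RIPK4.KO cultures was poly(A)-selected and sequenced as strand-specific paired-end libraries by an outside provider. The authors' processing notes name cutadapt, FastQC, HISAT2, HTSeq, DESeq2 and the build GRCh38.p13, with the counting options not given in the sources used here. The raw counts per gene, whole numbers without normalization, were used as deposited. The table's normalized counts and its columns of fold changes and p-values from the authors' own comparison were not used.

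Counts were tested across the whole table with edgeR 4.0.16 (R 4.3.3), using TMM normalization, filterByExpr and the quasi-likelihood test, with Benjamini-Hochberg adjustment over the 14443 genes kept. Genes were called at an adjusted p under 0.05, and past both limits when the change was also at least 1.5-fold. Normalized counts are TMM-scaled to the mean library. Per-kilobase levels used the median length of each gene's GENCODE basic transcripts. Shares within families were compared by two-sided exact permutation tests. The fit was tested before use on simulated data with changes of 1.5-fold or more and a spread taken from these libraries. Smaller changes were not part of that test.

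The 59 genes, their function groups and the further lists were chosen with earlier results of these data known. Values per library are given for every called gene, for genes with a fitted change of at least 1.5-fold, and for the most abundant gene per length of each group. Of the other lists, up to 6 genes past both limits are named. Replicate numbers did not pair the samples: deviations of same-numbered libraries correlated at 0.08, 0.04 and -0.01. The alternatives were DESeq2 1.42.0, its size factors, upper quartile scaling, no filter, a mean of at least 50 counts, a replicate block, an offset for transcript length, both together, each library left out, and, added after seeing the data, numbered copies of a gene summed. Gene names were matched to RefSeq for 19066 of 20851 genes directly and for 223 through older symbols.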

Additional observations from a re-analysis of the deposited data

How the results depend on the processing

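The 15 alternatives kept ACTA2, TPM1, CNN2, FMNL1, CAPG and SVIL past the threshold. Whether the smaller changes passed depended on which libraries were used. Their log2 fold changes kept their sign with 1 library left out, for instance from 0.204 to 0.316 for SRF and from -0.322 to -0.205 for TPM2. With 1 library left out, 2 to 8 genes were higher and 5 to 12 lower, against 6 and 8. The list of other actin assembly genes gave 8 to 21 calls with 1 library left out, against 16, and the Arp2/3 complex with its activators 0 to 2, against 0. That last count was 1 with DESeq2, with the transcript length offset, and with the replicate block and length offset together. With the replicate block alone, 6 genes were higher and 9 lower, CALD1 being the gain, and no other call of the 59 genes changed. A log2 fold change beyond 1.5 left 1 gene (CAPG) past both limits, and no fold limit left 14. FLNC passed without the filter on low counts and in DESeq2, and TPM2 did not pass without that filter (edgeR adjusted p = 0.0654).

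Among uncalled genes given per library, signs turned for ACTG1, TPM3, TAGLN2, FLNA and CYFIP1, and among the other uncalled genes for TAGLN, WASF1, NCKAP1, DIAPH3, FMNL3, DAAM1, EVL, PFN2 and MRTFB. With 1 library left out, the log2 fold changes of the 5 former ran from -0.0349 to 0.0820 for ACTG1, from -0.0578 to 0.0592 for TPM3, from -0.154 to 0.0569 for TAGLN2, from -0.0438 to 0.0419 for FLNA and from -3.11 to 0.131 for CYFIP1. TPM3 was at -0.00716 with the length offset and at -0.00857 with the replicate block added to it, and FLNA at 0.0593 and 0.0503 in the same fits and at 0.00508 with upper quartile scaling. Without scaling by length, the share of TPM1 among tropomyosins rose by 12.3 percentage points in place of 16.1, and that of FMNL1 changed by -3.42 in place of -5.60. The cause of these shifts was not tested beyond what each setting alters. Median log2 fold changes of all genes stayed between -0.01 and 0.00 in all fits. Depth limited LCP1, TAGLN, CNN1, FLNC and VIL1, which averaged under 50 counts.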

Other observations

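Rac proteins and Cdc42 are small GTPases that steer the structures described above, Rac proteins toward lamellipodia and Cdc42 toward filopodia. RAC2, the Rac protein of blood cells, was counted 4, 11 and 15 times in A375neg and 445, 511 and 442 times in A375RIPK4.KO. All 3 knockout libraries were far above the control libraries (log2 fold change 5.66, SE 0.29, edgeR adjusted p = 3.42e-06), a rise that held in all 15 alternatives. The control counts were few, so the size of the fold is uncertain. The leukocyte marker PTPRC had at most 3 counts in any library.

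RAC3 rose from 94.0, 84.7 and 84.4 to 137, 165 and 148 normalized counts (log2 fold change 0.77, SE 0.17, edgeR adjusted p = 0.0121). RAC1, the abundant Rac gene, did not pass, with a log2 fold change of 0.13 (95% interval -0.02 to 0.27), and neither did CDC42 at -0.09 (95% interval -0.28 to 0.10).

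The neural crest marker NGFR fell 8.19-fold (edgeR adjusted p = 0.000141), from 192, 173 and 209 raw counts to 12, 21 and 31.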
